A study of Mus musculus with 4 samples.

Results

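The colony-stimulating factors and their receptors were followed in 4 single-cell RNA libraries of mouse lungs carrying KP tumours. The set holds 9 of the 31053 genes in the feature list, each with 1 row: the factors Csf1, Il34, Csf2 and Csf3, and the receptor chains Csf1r, Csf2ra, Csf2rb, Csf2rb2 and Csf3r. They were chosen by name and not by a cut on their values, though earlier results of these data were known. The question was which cells of the lung carried the RNA of each factor, and which carried the chains that receive it.

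Colony-stimulating factors are secreted proteins that keep myeloid cells alive and steer their growth and maturation. Csf1 encodes M-CSF and Il34 an unrelated second ligand, and both bind the receptor tyrosine kinase encoded by Csf1r, on which monocytes and most macrophages depend. Csf2 encodes GM-CSF, which binds the alpha chain encoded by Csf2ra and signals through the common beta chain encoded by Csf2rb, and which is required for alveolar macrophages in the lung. The mouse has a duplicate of that beta chain, Csf2rb2, which serves the IL-3 receptor. Csf3 encodes G-CSF, whose receptor Csf3r drives the production and release of neutrophils.

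KP cells are mouse lung cancer cells of the genotype KrasG12DP53-/-, and were given to B6 mice through a vein to form lung tumours. The tumour cells were either wild type (WT) or knocked out for the histone chaperone gene Asf1a (KO), so the knockout was in the injected cells only. For 1 week the mice received either isotype IgG, or anti-PD-1 (clone 29F.1A12) at 200 µg per mouse 3 times a week. The IgG dose and the ages of the mice were not given in the sources used here. Each of the 4 groups was 1 library of live cells sorted from digested whole lungs, so no difference between groups has a replicate check. It was not stated whether the KO line was 1 clone or how many mice went into a library.

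The files held 6074, 6683, 6362 and 6094 cell barcodes with 22506737, 22369904, 17578188 and 16078095 UMIs (counted RNA molecules) with the WT libraries first (IgG, then anti-PD-1) and the KO libraries after them in the same way, an order kept for every list of 4 values, and 23360 cells passed the filters. Median UMIs per kept cell were 2026, 1881, 1220 and 1339, so both KO libraries were shallower. Asf1a RNA in the tumour cells stood at 35.4, 30.6, 9.43 and 7.24 CPM (UMIs of the gene per 1000000 UMIs of the class), lower in both KO libraries. Cells were clustered without the 9 genes and named from marker lists, so each class below is "like" its markers. The tumour class was keratin-positive, with 6 of its 9 markers in at least 10% of cells, but Epcam was seen in only 1 of its 24 cells with Csf2 and 4 of the other 553. Levels carry exact 95% Poisson intervals that cover counting error only, and means ± SD run over the 4 libraries, which differ in condition. Levels of different genes are not compared with each other, since tags lie at 3′ ends. A few UMIs of abundant genes were also seen in cells that should lack them, and the level there is given as background.

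Most Csf1 RNA was in neutrophils. Of 2807 Csf1 UMIs in all kept cells, 72.0% were in neutrophil-like cells, which were 36.4% of cells. The Siglecf-marked neutrophils, which carry Ccl3, Ccl4 and Cd63 beside Siglecf, held 58.7% of the UMIs with 18.8% of the cells. Csf1 there read 346 CPM in WT IgG (318 to 375), 354 in WT anti-PD-1 (322 to 389), 355 in KO IgG (323 to 389) and 245 in KO anti-PD-1 (211 to 282). The first 3 libraries overlapped and the KO anti-PD-1 library lay below all of them. The Retnlg-marked neutrophils, which carry Retnlg, Mmp8 and Lcn2, had 87.1, 112, 82.2 and 66.0 CPM, below the Siglecf-marked cells in 4 of 4 libraries without overlap (86.8 ± 19.0 against 325 ± 53.7). A two-sided exact sign-flip permutation test over 4 libraries cannot reach 0.05, so the order of classes is given as a description throughout.

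The highest level per cell class was in a far smaller population. The 44 basophil-like cells, marked by Mcpt8 and Ms4a2, were 0.188% of all cells and held 158 Csf1 UMIs, 5.63% of the total. Csf1 read 1549 CPM in 10 WT IgG cells, 2049 in 23 WT anti-PD-1 cells, 3135 in 3 KO IgG cells and 729 in 8 KO anti-PD-1 cells. Every library was above the highest Siglecf-marked neutrophil value, and 35 of the 44 cells had at least 1 UMI (79.5%, exact binomial interval 64.7% to 90.2%). The cell with the most held 18 UMIs, so the level did not come from 1 cell.

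Other classes carried less Csf1. Fibroblast-like cells had 57.2 ± 38.8 CPM in only 44 cells, and lipid macrophages, which carry Gpnmb, Trem2 and Apoe, had 25.8 ± 3.06 CPM and 7.27% of the UMIs. Tumour cells had 9.50, 12.8, 10.1 and 6.72 CPM. As background, B cells read 7.11 CPM over the 4 libraries, with a UMI in 1.27% of cells at a median of 1499 UMIs, against 25.4% of Siglecf-marked neutrophils at a median of 1009. Plasma cells, with a median of 11876 UMIs, read 2.50 CPM. The tumour values overlapped those of B cells (4.95 to 12.2 by library) and lay above those of plasma cells (1.47 to 3.59). Neighbours in the order from endothelium at 35.0 ± 31.2 CPM down to regulatory T cells at 24.0 ± 11.1 CPM overlapped and were each higher in 2 of 4 libraries only. Few Siglecf-marked neutrophils carried both Csf1 and its receptor: 1115 of 4387 had a Csf1 UMI, 317 a Csf1r UMI and 89 had both.

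RefSeq's upstream sequences held 5 of the 9 genes (Csf1, Csf2, Csf2ra, Csf2rb2 and Csf3r), and 3 are printed where they carry a motif of a factor on the lists used here. The 250 bases before each start were searched on both strands for GAGGAA (the PU.1 core), TTGCNNAA (C/EBP), AGATAA (read by Gata3 and its relatives), the NF-kB core with its 3 middle bases free, and the interferon-stimulated element with 2 bases free. The last was found in none of the 5. NF-kB is the family whose members Nfkb1 and Rela stood on the list of inducers, and the Csf1 window had its letters on both strands, at bases -155 to -146 and, overlapping, -154 to -145, against 3.82% of 27025 upstream windows with a match. The stretch nearest the start, chr3:107760470-107760634 of GRCm38.p6 on the minus strand, is printed 5′ to 3′ along the gene, with both matches in capitals.
Csf1 upstream: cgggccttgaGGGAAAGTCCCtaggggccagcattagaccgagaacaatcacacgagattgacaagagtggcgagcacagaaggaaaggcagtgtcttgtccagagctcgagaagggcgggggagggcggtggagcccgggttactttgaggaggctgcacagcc
Such a match is a run of letters and no measurement of binding.

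**Figure D1:**
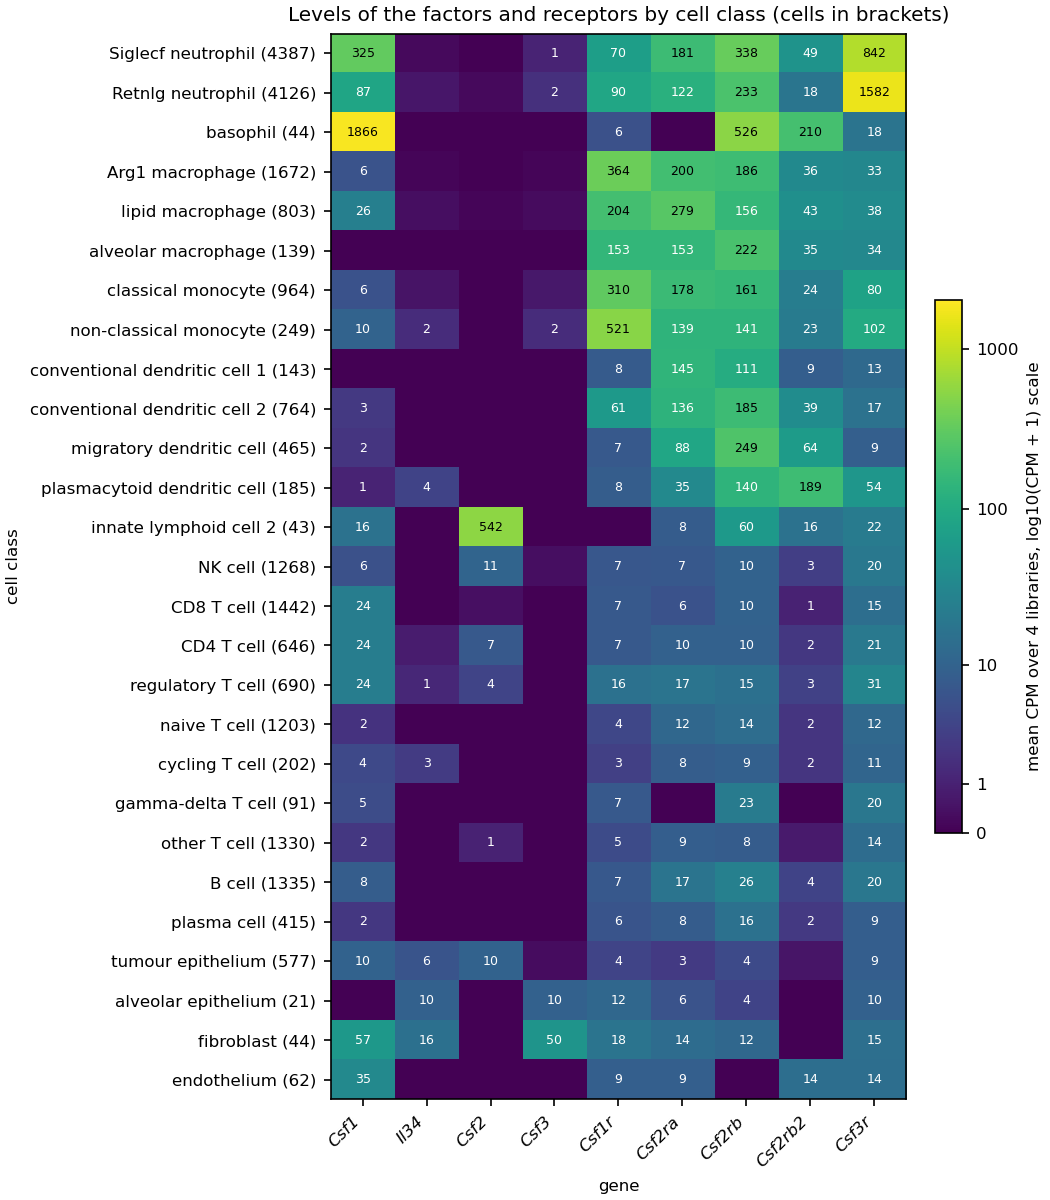
Mean CPM over the 4 libraries for the 9 genes (columns) in 27 cell classes (rows, number of cells in brackets); colour follows log10(CPM + 1) and values of at least 1 are printed. Csf1 stands out in basophil-like cells and Siglecf-marked neutrophils, Csf2 in innate lymphoid cells of type 2, Csf1r in monocytes and macrophages and Csf3r in neutrophils.

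Between the libraries, Csf1 in neutrophils was lowest in KO anti-PD-1. In Siglecf-marked neutrophils KO IgG over WT IgG was 1.03 (exact interval of the ratio 0.906 to 1.16) and WT anti-PD-1 over WT IgG was 1.02 (0.902 to 1.16). KO anti-PD-1 over KO IgG was 0.689 (0.578 to 0.818), and over WT anti-PD-1 it was 0.690 (0.579 to 0.821). These ratios share libraries, so the 2 lower values both rest on the KO anti-PD-1 library. Both sub-clusters of the class were lowest there: the larger read 334, 348, 346 and 244 CPM, and the smaller, with 28 to 87 cells a library, 574, 494, 478 and 268. The last of these came from 6 UMIs, and its interval of 98.2 to 582 CPM took in the other 3 values, so only the larger sub-cluster separated the libraries. The summed CPM of the 8 markers that define the class was also lowest in that library, at 6083 against 7097 to 8095, and its part in the Csf1 difference was not tested.

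Over all neutrophils together the spread was wider, at 250, 253, 211 and 138 CPM. The share of neutrophils that were Siglecf-marked was 63.2%, 57.3%, 48.2% and 41.1% in the same order, and its part was not tested. In Retnlg-marked neutrophils KO anti-PD-1 over WT anti-PD-1 was 0.590 (0.431 to 0.805), while KO anti-PD-1 over KO IgG was 0.803 (0.593 to 1.08), an interval that included 1.

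CD4 T cells had the largest Csf1 ratio of any class compared. They read 7.68, 54.0, 7.15 and 28.6 CPM from 4, 24, 1 and 9 UMIs, higher in both anti-PD-1 libraries. WT anti-PD-1 over WT IgG was 7.04 (2.42 to 27.9), where 2.86% of genes measured in that class were at least 2-fold higher, while KO anti-PD-1 and KO IgG had too few UMIs to be compared. The class joined 2 clusters, and 35 of its 38 Csf1 UMIs were in the one led by Ccl1, Penk and Tnfsf8. That cluster was 52.8%, 62.7%, 42.5% and 75.8% of the class, a larger part in both anti-PD-1 libraries. Within it Csf1 read 12.9, 73.4, 0 and 35.1 CPM from 4, 22, 0 and 9 UMIs, and WT anti-PD-1 over WT IgG was 5.71 (1.94 to 22.8). Neutrophil markers summed to 1474, 801, 1437 and 1125 CPM in the CD4 T cells. Basophil markers summed to 1.92, 15.8, 7.15 and 38.2 CPM, with 5 of the 8 at 0 in all cells of the class. The part of neutrophil or basophil RNA in the Csf1 values was not tested.

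**Figure D2:**
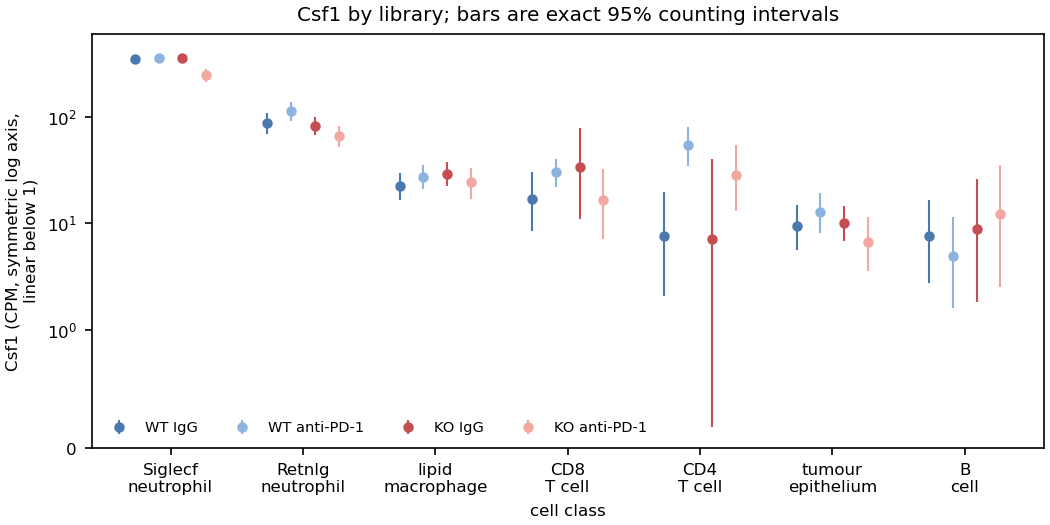
Csf1 in CPM (symmetric log axis, linear below 1) in 7 classes, 1 point per library with its exact 95% counting interval. The KO anti-PD-1 point of the Siglecf-marked neutrophils, at 245 CPM, lies below the other 3, at 346 to 355, and CD4 T cells are highest in WT anti-PD-1.

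Il34 was rare, and its RNA was found mostly in tumour cells. Of 82 UMIs, 57 (69.5%) were in the tumour class, in 43 of 577 cells (7.45%, 5.45% to 9.91%). The libraries read 5.28, 3.33, 10.1 and 6.20 CPM from 10, 6, 29 and 12 UMIs, highest in KO IgG, with intervals that overlapped. KO IgG over WT IgG was 1.92 (0.909 to 4.42), which includes 1. Of the 57 UMIs, 32 were in 1 of the tumour clusters, led by Krt8 and Krt18, which had 3, 6, 71 and 29 cells and a median of 19559 UMIs per cell. Outside that cluster, which was mostly from the KO libraries, Il34 read 5.47, 1.86, 6.28 and 3.47 CPM from 10, 3, 8 and 4 UMIs. KO IgG over WT IgG was then 1.15 (0.394 to 3.23). Cells with Il34 had a median of 26978 UMIs against 9443 in the others, so it was seen in the deeper cells. Fibroblast-like cells had 8 UMIs at 30.2, 20.8, 0 and 11.9 CPM. Other receptors that bind IL-34 were on a separate list of 3 genes: Sdc1, a cell-surface proteoglycan, read 133 ± 32.3 CPM in tumour cells, Trem2, a lipid-sensing receptor and itself a marker of that class, 765 ± 48.0 CPM in lipid macrophages, and Ptprz1 was at 0 there.

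Csf2 was found in few cells. Only 69 of 23360 cells had any of its 230 UMIs. Group 2 innate lymphoid cells, lymphocytes without antigen receptors that are named here from Gata3, Il1rl1 and Areg among 8 markers, held 97 of the UMIs (42.2%) in 43 cells (0.184% of cells), 13 of which had a UMI. By library their level was 1271, 225 and 670 CPM, and 0 in KO anti-PD-1, where only 4 such cells were kept and 3 counts would be 667 CPM. In WT IgG 3 cells with 27, 25 and 16 UMIs made up most of the 78 found, so the value there rests on those cells, and the mean over libraries was 542 ± 560 CPM with that library and 298 CPM without it. Cd3e was seen in 1 of the 13 cells with Csf2 and in 1 of the 30 without. Gata3 was seen in 11 of the 13 and 18 of the 30, but Il1rl1 in 6 and 23, at medians of 3071 and 2105.5 UMIs. The border of this class moved with the processing: the share of Csf2 UMIs it held ran from 18.1% with a mitochondrial limit of 5% to 42.2% as reported.

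Tumour cells held another 85 Csf2 UMIs (37.0%) in 24 of 577 cells. The libraries read 3.17 (1.16 to 6.89), 13.9 (8.99 to 20.5), 11.5 (7.94 to 16.2) and 10.9 CPM (6.72 to 16.6), with WT IgG the lowest. The share of cells with a UMI did not follow that order, at 3.60%, 2.65%, 3.62% and 6.82%, with intervals that all overlapped. One WT anti-PD-1 cell held 18 of the 25 UMIs of its library, and without the top cell of each library the levels were 1.69, 4.21, 9.14 and 7.47 CPM.

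KO IgG over WT IgG was 3.64 (1.51 to 10.6) from 33 and 6 UMIs, in a class where 5.69% of measured genes were at least 2-fold higher. The same cluster of mostly KO cells, 2.70%, 5.31%, 32.1% and 22.0% of the tumour class by library, held 40 of the 85 Csf2 UMIs, 26 in KO IgG and 14 in KO anti-PD-1. Without it, a choice made after the data were seen, the levels were 3.28, 15.5, 5.50 and 6.08 CPM. KO IgG over WT IgG was then 1.68 (0.482 to 6.03) from 7 and 6 UMIs, and KO anti-PD-1 over WT anti-PD-1 was 0.392 (0.143 to 0.933). The first interval included both 1 and the 3.64 of the whole class, and the part of that cluster in the difference was not tested. WT anti-PD-1 over WT IgG was 4.38 (1.76 to 13.1), against 2.04% of measured genes, but was 0 when cells with a UMI of the leukocyte gene Ptprc were left out, since all 3 of its Csf2 cells had one. Over the 4 libraries Ptprc was seen in 15 of the 24 tumour cells with Csf2 and in 127 of the 553 without. Cells with Csf2 had a median of 36807.5 UMIs against 9600, and whether they held a second cell was not tested. Without cells with Ptprc the levels were 1.93, 0, 9.02 and 5.76 CPM, from 2, 0, 19 and 6 UMIs. Both KO libraries were then above both WT libraries, but only KO IgG (5.43 to 14.1) and WT anti-PD-1 (0 to 4.06) had intervals that did not overlap. With each cell thinned to 1000 UMIs, the tumour cells with a Csf2 UMI numbered 1, 1, 0 and 0, too few to read a ratio. The ratios within the KO tumours and within anti-PD-1 were nearer 1, at 0.942 (0.518 to 1.68) for KO anti-PD-1 over KO IgG and 0.782 (0.416 to 1.45) for KO anti-PD-1 over WT anti-PD-1.

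NK cells, the cytotoxic innate lymphocytes, held 32 Csf2 UMIs in 18 of 1268 cells, and T cells of all kinds only 14. Gzma, a marker of the NK class, was seen in 8 of the 18 cells with Csf2 (44.4%) and in 1014 of the 1250 without (81.1%). Klrb1c was seen in 55.6% and 64.5% and Ncr1 in 55.6% and 47.1%, at medians of 3102.5 and 1881.5 UMIs. Whether the cells with Csf2 were typical of the class was not tested. The NK level was 8.25, 21.0, 7.50 and 5.96 CPM, highest in WT anti-PD-1, where 1 cell held 10 of 17 UMIs. WT anti-PD-1 over WT IgG was 2.55 (1.01 to 7.28) beside 1.82% of measured genes, and KO anti-PD-1 over WT anti-PD-1 was 0.283 (0.0693 to 0.868) beside 4.37% lower. No Csf2 UMI was seen in 4387 Siglecf-marked neutrophils, which allows up to 0.0684% of cells with a UMI, or in 1335 B cells, which allows up to 0.225%. At medians of 1009 and 1499 UMIs per cell these limits cover cells with a UMI and not cells that carry the RNA. Of the gene's neighbours in function, Il5, whose receptor shares the beta chain, read 106 ± 200 CPM in the innate lymphoid cells, all but 1 of its UMIs there from WT anti-PD-1.

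**Figure D3:**
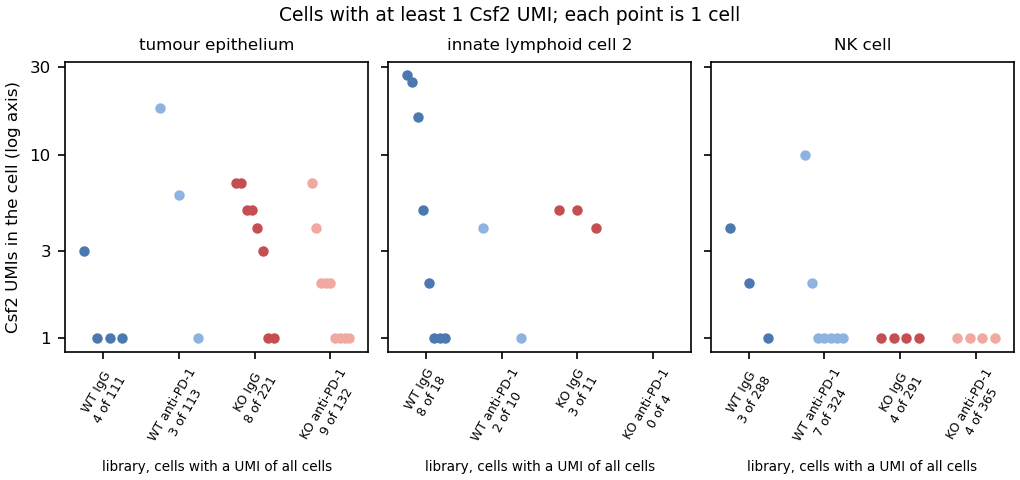
Csf2 UMIs (log axis) in each cell that had at least 1, by library, in tumour cells, group 2 innate lymphoid cells and NK cells; the axis gives cells with a UMI of all cells. A few cells hold most of the UMIs: 27, 25 and 16 in the WT IgG innate lymphoid cells and 18 in 1 WT anti-PD-1 tumour cell.

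Csf3 was the rarest of the 4 factors. It had 51 UMIs in 27 cells, of which 27 UMIs were in 5 of 44 fibroblast-like cells. Those cells read 0, 131, 39.5 and 29.7 CPM, and 18 of the 19 UMIs of WT anti-PD-1 were in 1 cell, with a mean over libraries of 50.1 ± 56.7 CPM and of 23.0 CPM without that library. For WT IgG, 3 counts would be 30.2 CPM, so a level like that of KO anti-PD-1 was not detectable there. Neutrophils of both states held 14 UMIs, at 1.91 ± 1.05 CPM in the Retnlg-marked and 1.13 ± 1.02 CPM in the Siglecf-marked cells. No class had enough UMIs of Csf3 to be compared between libraries.

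Csf1r followed the monocyte and macrophage lineage. Classical monocytes, Arg1-marked macrophages and lipid macrophages held 79.7% of its 8153 UMIs with 14.7% of the cells. The highest level was in non-classical monocytes, at 593, 592, 480 and 421 CPM in 66, 108, 25 and 50 cells. It was lower in both KO libraries, but the class held only 273 Csf1r UMIs and the counting intervals of the KO and WT libraries overlapped. Arg1-marked macrophages followed at 364 ± 16.4 CPM, then classical monocytes at 310 ± 9.77 and lipid macrophages at 204 ± 26.0, and each of these steps was seen in 4 of 4 libraries without overlap. Alveolar macrophages, at 153 ± 34.5 CPM, overlapped the lipid macrophages.

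Neutrophils also had Csf1r RNA, at 90.2 ± 4.45 CPM in the Retnlg-marked and 69.5 ± 5.15 CPM in the Siglecf-marked cells, without overlap, against 6.27 to 7.55 CPM in B, CD8 T and NK cells as background. In lipid macrophages 103 of 803 cells had UMIs of both Csf1 and Csf1r, and in Arg1-marked macrophages 37 of 1672.

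Between libraries Csf1r stayed within 2-fold in every class measured. The ratios furthest from 1 were in conventional dendritic cells of type 2, at 1.58 (1.15 to 2.17) for KO IgG over WT IgG and 0.680 (0.50 to 0.922) for KO anti-PD-1 over KO IgG, both resting on KO IgG. Lipid macrophages read 0.793 (0.689 to 0.913) for KO IgG over WT IgG. In Arg1-marked macrophages the 4 libraries read 375, 379, 344 and 357 CPM, and their 4 ratios ran from 0.917 to 1.04. The share of these cells with a Csf1r UMI was 84.9%, 85.7%, 69.4% and 75.0%, but between 28.1% and 33.3% once each cell was thinned to 1000 UMIs.

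Csf2ra, the chain that binds GM-CSF, was highest in lipid macrophages. They held 28.0% of its 7951 UMIs at 264 (242 to 287), 305 (283 to 330), 311 (287 to 336) and 238 CPM (214 to 263). The middle pair were the higher ones and KO anti-PD-1 the lowest. KO anti-PD-1 over KO IgG was 0.765 (0.671 to 0.871) and WT anti-PD-1 over WT IgG was 1.16 (1.03 to 1.30), both within 2-fold. Arg1-marked macrophages had 200 ± 10.6 CPM, below the lipid macrophages in 4 of 4 libraries without overlap. Siglecf-marked neutrophils (181 ± 6.60), classical monocytes (178 ± 3.33) and alveolar macrophages (153 ± 38.2) overlapped their neighbours in that order, and background was 6.83 to 15.1 CPM in CD8 T, NK and B cells.

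The bases before the Csf2ra and Csf3r starts are shown because the gene whose class pattern was most like that of Csf2ra was Spi1, which encodes PU.1. The Csf2ra window had GAGGAA in tandem at -14 to -9 and -8 to -3, and the Csf3r window had it at -86 to -81. The reverse complement was found in the Csf2rb2 window at -167 to -162, and 23.1% of all 27025 windows held the motif on either strand. The stretches are chr19:61228419-61228538 on the minus strand for Csf2ra and chr4:126024539-126024658 on the plus strand for Csf3r (GRCm38.p6, RefSeq), 5′ to 3′ along each gene, with the motif in capitals.
Csf2ra upstream: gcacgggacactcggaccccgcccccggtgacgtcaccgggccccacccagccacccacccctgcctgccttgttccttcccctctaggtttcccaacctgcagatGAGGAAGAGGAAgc
Csf3r upstream: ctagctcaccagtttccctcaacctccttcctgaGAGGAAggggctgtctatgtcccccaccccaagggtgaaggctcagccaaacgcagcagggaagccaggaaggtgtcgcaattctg
The same windows of Csf3r and Csf2 held 1 NF-kB match on the opposite strand and 1 C/EBP and 1 GATA match, respectively.

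The common beta chain Csf2rb had its highest mean in basophil-like cells, at 408, 490, 965 and 243 CPM, a range that overlapped the next class. Siglecf-marked neutrophils read 334, 345, 319 and 354 CPM, above migratory dendritic cells (249 ± 25.7) in 4 of 4 libraries without overlap. Retnlg-marked neutrophils (233 ± 11.1), alveolar macrophages (222 ± 83.5), Arg1-marked macrophages (186 ± 16.8) and conventional dendritic cells of type 2 (185 ± 16.0) overlapped their neighbours. In the lymphocytes used as background the level was 8.99 to 9.79 CPM, with a UMI in 1.66% to 2.13% of cells at medians of 1786.5 to 2055 UMIs.

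Both chains of the GM-CSF receptor are needed for a complete receptor, and their RNAs were counted per cell. Csf2ra and Csf2rb were seen together in 58.7% of lipid macrophages, 40.6% of conventional dendritic cells of type 1, 38.1% of type 2 and 36.4% of Arg1-marked macrophages, but in 4.06% of neutrophils. Median depth differed between these classes, at 9519, 9409, 6713.5, 5217.5 and 976 UMIs per cell, so the shares are not compared as measures of level. In 44 basophil-like cells 24 had a Csf2rb UMI and 0 a Csf2ra UMI. At a median of 1975.5 UMIs per cell this allows up to 6.82% of cells with a Csf2ra UMI and sets no limit on cells that carry its RNA.

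The duplicate chain Csf2rb2 had a different pattern. Plasmacytoid dendritic cells read 228, 153, 195 and 181 CPM in 37, 41, 32 and 75 cells, above migratory dendritic cells (64.1 ± 16.5) in 4 of 4 libraries without overlap, and basophil-like cells read 210 ± 121 CPM. In other classes the mean was 48.9 CPM or lower, against 1.08 to 3.15 CPM in CD8 T, B and NK cells. Of the UMIs of the 2 genes together, Csf2rb2 made up 56.7% in plasmacytoid dendritic cells (50.1% to 63.0%), 30.5% in basophil-like cells (19.2% to 43.9%), 21.4% in lipid macrophages (19.4% to 23.5%) and 7.64% in Retnlg-marked neutrophils (6.15% to 9.36%). The plasmacytoid share was 57.1%, 51.8%, 64.5% and 56.5% by library, and over all cells it was 16.4%.

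The 2 genes are near copies, and reads that fit both could be split or dropped by the authors' counting. In the reference transcripts 28.0% of the 31-base words of Csf2rb and 29.1% of those of Csf2rb2 occurred in the other gene, but 1.28% in the last 500 bases, where 3′ tags lie. Partner chains that use a beta chain were on a list of 4 genes, of which Il3ra read 65.7 ± 6.70 CPM in lipid macrophages, while Il3 and Il5ra were at 0 in those cells and in the basophil-like class.

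**Figure D4:**
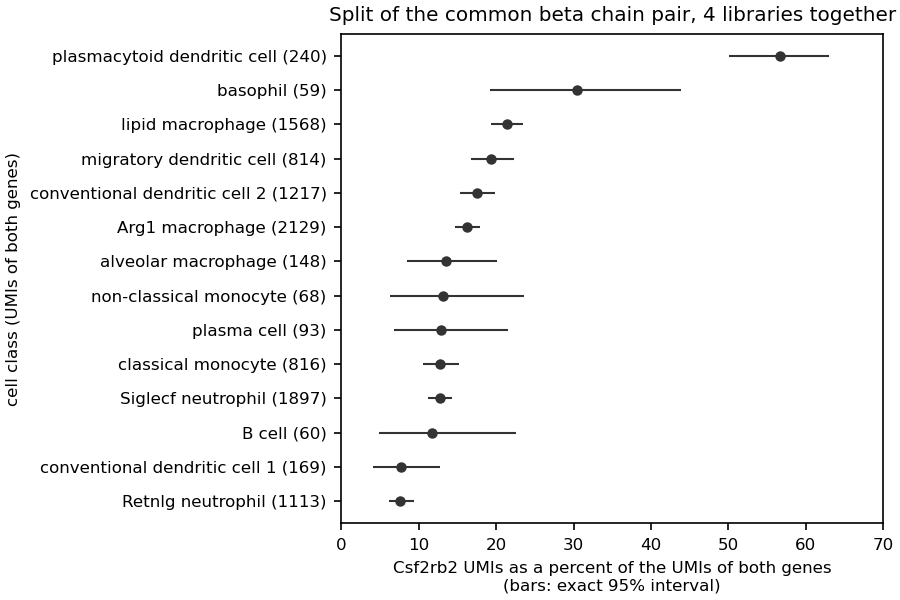
Csf2rb2 UMIs as a percent of the UMIs of Csf2rb and Csf2rb2 together, by cell class over the 4 libraries (UMIs of both genes in brackets), for classes with at least 50 such UMIs; bars are exact 95% binomial intervals. Plasmacytoid dendritic cells stand at 56.7%, and no other class is above 30.5%.

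Csf3r marked the neutrophils, which held 87.1% of its 12792 UMIs. The Retnlg-marked cells read 1572, 1611, 1650 and 1493 CPM and the Siglecf-marked cells 876, 863, 799 and 828. The Retnlg-marked cells were higher in 4 of 4 libraries without overlap, the reverse of the order seen for Csf1. A UMI was seen in 77.9% of Retnlg-marked and 55.2% of Siglecf-marked cells, at medians of 937.5 and 1009 UMIs per cell. Of the Siglecf-marked cells, 623 of 4387 (14.2%) had UMIs of both Csf1 and Csf3r. Non-classical monocytes (102 ± 21.1 CPM) and classical monocytes (79.7 ± 10.7) were the next classes, and background was 16.2 to 20.6 CPM in CD8 T, B and NK cells, with 2.47% of B cells at a median of 1499 UMIs.

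Between libraries Csf3r lay within 2-fold in both neutrophil states. In Retnlg-marked cells the 4 ratios ran from 0.905 (0.850 to 0.964) for KO anti-PD-1 over KO IgG to 1.05 (0.984 to 1.12) for KO IgG over WT IgG. In Siglecf-marked cells they ran from 0.913 (0.842 to 0.990) to 1.04 (0.937 to 1.15). One T cell class without a subset name read 2.97 (1.28 to 7.26) for KO IgG over WT IgG, from 17 and 10 UMIs, at 20.7 and 6.95 CPM, beside 3.07% of measured genes. Neutrophil markers in those cells summed to 791 and 1100 CPM in WT IgG and KO IgG, and their part was not tested.

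**Figure D5:**
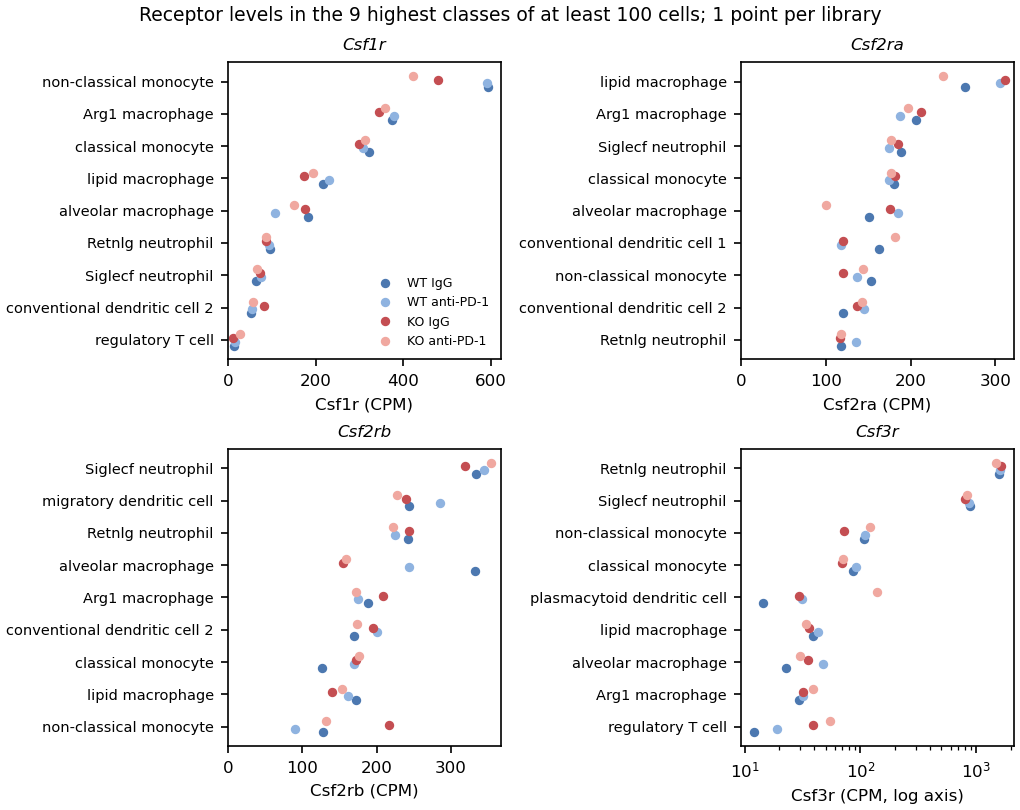
Csf1r, Csf2ra, Csf2rb and Csf3r in CPM (Csf3r on a log axis) in the 9 highest classes of at least 100 cells, 1 point per library. Csf3r lies between 1493 and 1650 CPM in Retnlg-marked neutrophils and between 799 and 876 in Siglecf-marked neutrophils.

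Counted over all 9 genes and the 15 classes that had 50 or more cells per library, 8 differences reached 2-fold. With at least 20 UMIs in the 2 libraries, KO IgG against WT IgG had 50 pairs, of which 3 were higher and 0 lower, beside 3.27% higher and 3.28% lower over all genes. WT anti-PD-1 against WT IgG had 53 pairs, 3 higher and 1 lower, beside 2.17% and 1.95%. KO anti-PD-1 against KO IgG had 46 pairs and none past 2-fold (3.28% and 4.37% over all genes), and KO anti-PD-1 against WT anti-PD-1 had 49 pairs with 1 lower (3.14% and 4.68%). Of these 8, 4 were Csf2 in tumour or NK cells, of which the KO IgG tumour value had too few UMIs to be counted without the cluster of mostly KO cells. The others were Csf1 in CD4 T cells, Csf3r in the T cells above, and 2 in B cells with intervals that included 1: Csf2ra at 0.472 (0.182 to 1.15) from 9 and 15 UMIs, and Csf2rb at 2.17 (0.938 to 4.97) from 13 and 14 UMIs, beside 1.39% and 3.51% of measured genes.

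The genes known as targets of these receptors were counted in the 5 largest myeloid classes together (both neutrophil states, both macrophage classes and classical monocytes). Of the 10 GM-CSF and STAT5 targets, 34 gene and class pairs were measured for KO IgG against WT IgG, 5 at least 2-fold higher and 1 lower, beside 2.28% and 2.01% over all genes, with a median log2 ratio of 0.14 beside 0.02. For WT anti-PD-1 against WT IgG, 2 of 35 were higher and 2 lower, beside 1.89% and 1.61%, with medians of -0.04 and 0.02. For KO anti-PD-1 against KO IgG, 0 of 37 were higher and 2 lower, beside 3.03% and 3.18%, with medians of -0.12 and -0.03. For KO anti-PD-1 against WT anti-PD-1, 5 of 38 were higher and 0 lower, beside 2.76% and 3.45%, with medians of 0.06 and -0.04. Among them Ccl17, a chemokine that draws CCR4-bearing T cells, read 142, 81.1, 698 and 253 CPM in Arg1-marked macrophages. It was highest in KO IgG, at 4.90 (4.36 to 5.52) over WT IgG. Pim1, a kinase induced by STAT5 and the highest of the list there, read 506, 480, 657 and 563 CPM. Ccl17 was also among the higher pairs in Siglecf-marked neutrophils for KO IgG over WT IgG. For KO anti-PD-1 over WT anti-PD-1 it was among them in Arg1-marked macrophages and classical monocytes, so the counts rest in part on this gene. Ccl17 led clusters of type 2 conventional and of migratory dendritic cells, and the part of RNA from such cells was not tested.

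Of the 12 G-CSF and STAT3 targets of neutrophils, 46 pairs were measured for KO IgG against WT IgG, 3 higher and 3 lower, beside 2.28% and 2.01% over all genes, with medians of -0.02 and 0.02. For WT anti-PD-1 against WT IgG, 0 of 47 were higher and 2 lower, beside 1.89% and 1.61%, with medians of -0.04 and 0.02. For KO anti-PD-1 against KO IgG, 7 of 46 were higher and 1 lower, beside 3.03% and 3.18%, with medians of 0.23 and -0.03. For KO anti-PD-1 against WT anti-PD-1, 7 of 47 were higher and 0 lower, beside 2.76% and 3.45%, with medians of 0.31 and -0.04. In Retnlg-marked neutrophils the granule genes Camp (936, 1530, 531 and 1679 CPM) and Ngp (598, 983, 437 and 1447) were highest in KO anti-PD-1. Most of these UMIs, 4664 of 4906 for Camp and 3270 of 3704 for Ngp, were in 1 cluster of 28 cells led by Camp, Ngp and Ltf, which had 2, 5, 7 and 14 cells by library. In the other 4098 cells Camp read 152 CPM in WT IgG from 145 UMIs, of which 115 were in 1 cell. It read 51.9 CPM in WT anti-PD-1 and 29.6 in KO anti-PD-1, and was lowest in KO IgG with 21 UMIs. The WT IgG value was the highest, but it rests on that WT IgG cell. Ngp read 136, 76.7, 61.2 and 142 CPM in those 4098 cells. The cluster of 28 cells was left out after the data were seen. The list then had 3 higher and 6 lower of 46 for KO IgG against WT IgG, beside 2.29% and 2.01% over all genes. For WT anti-PD-1 against WT IgG it had 0 higher and 4 lower of 47, beside 1.87% and 1.64%. It had 5 higher and 1 lower of 45 for KO anti-PD-1 against KO IgG, beside 3.04% and 3.19%. Against WT anti-PD-1 it had 7 higher and 0 lower of 46, beside 2.74% and 3.43%. Most of these higher pairs were not in neutrophils. Against WT anti-PD-1 only Camp and Cd177 in Siglecf-marked neutrophils were, and the rest lay in macrophages and classical monocytes. Against KO IgG only Camp in Siglecf-marked and Ngp in Retnlg-marked neutrophils were, and the rest lay in lipid macrophages. Camp in Retnlg-marked neutrophils was among the lower pairs in both comparisons with WT IgG, where it rests on the same WT IgG cell. Il1r2, the decoy receptor of IL-1, read 1231, 1213, 1869 and 2217 CPM, higher in both KO libraries, and 1243, 1248, 1893 and 2305 without the cluster. Mmp8 and Lcn2 of this list were also markers that named the Retnlg-marked cells. Csf3r itself stayed within 2-fold in those cells.

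Of the 11 CSF1 targets and dependent genes of macrophages, 44 pairs were measured for KO IgG against WT IgG, 4 higher and 3 lower, beside 2.28% and 2.01%, with a median of -0.20 beside 0.02. For WT anti-PD-1 against WT IgG, 2 of 42 were higher and 1 lower, beside 1.89% and 1.61%, with medians of 0.00 and 0.02. For KO anti-PD-1 against KO IgG, 4 of 46 were higher and 4 lower, beside 3.03% and 3.18%, with medians of 0.39 and -0.03. For KO anti-PD-1 against WT anti-PD-1, 5 of 45 were higher and 3 lower, beside 2.76% and 3.45%, with medians of 0.14 and -0.04. Apoe, C1qa and Cd63 of this list were also markers that named the classes. The complement genes C1qa (1778, 1611, 818 and 1134 CPM) and C1qb (1903, 1828, 995 and 1515 CPM) were lower in both KO libraries in Arg1-marked macrophages. In classical monocytes the direction was the other one. There the log2 ratios of KO IgG over WT IgG were 1.16 (C1qa) and 1.05 (C1qb). C1qc read 1.14 there for KO anti-PD-1 over WT anti-PD-1. The other lists are given over the same 4 comparisons, in which 1.89% to 3.03% of all gene and class pairs were higher and 1.61% to 3.45% lower. The 20 signalling genes had at most 1 higher and 1 lower of 98 to 100 pairs in each. The 10 inhibitors had 1 to 3 higher and 0 lower of 42. The inducers of the factors had at most 1 higher and 1 lower of 40 or 41, and the transcription factors of receptor expression at most 3 higher and 1 lower of 40 to 42. The kinases and ligands related to Csf1r (Kit, Kitl, Flt3 and Flt3l) had 1 higher and at most 2 lower of 4 or 5, and the other IL-34 receptors (7 pairs) and shared-chain partners (3 pairs) had 0 in either direction. In Siglecf-marked neutrophils, where most Csf1 RNA lay, the highest inducer was Il1b at 15360 ± 585 CPM.

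Across 23 classes of at least 50 cells, the pattern most like each gene was sought among 10672 genes by Pearson's r of log2(CPM + 10), as a description, since the classes share libraries and depth. Csf2ra was most like Spi1 (r = 0.968), with Cd300c2 at 0.949, and Csf2rb was also most like Spi1 (0.951), then Pirb (0.934) and Prkcd (0.910). With classes of 20 cells or more, a choice made after the data were seen, Spi1 (0.934) stood behind Cd300c2 (0.956) for Csf2ra, and Ncf1 came first for Csf2rb (0.919). Csf1r was most like Sirpb1c (0.956), the Fc receptor gene Fcgr4 (0.950) and Clec4a3 (0.949), and these 3 genes were also the nearest with classes of 20 cells or more. Csf3r was most like Hnmt (0.964), G0s2 (0.958) and Trem1 (0.956). Csf1 was most like Il23a (0.860), Entpd3 (0.854) and Ceacam10 (0.851), but with classes of 20 cells or more, which add the basophil-like cells, it was most like the histidine decarboxylase gene Hdc (0.879). Csf2rb2 had no near match above 0.860, and Csf2 was most like Muc1 (0.906), a list that changed in full to Zcchc10 (0.901), Timm23 (0.821) and Rnf128 (0.820) once the innate lymphoid cells were among the classes.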

How the data were processed

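Per the labels, live cells of whole lungs were run on the 10x Genomics 3′ kit (v2) with 1 library for each of 4 groups. The authors deposited raw UMI counts per gene and cell. Per the submitters' processing notes they used bcl2fastq and Cell Ranger, and the matrix headers give software version 3.0.0. The notes name the build hg19 while the gene identifiers are those of mouse, so the build was not established. Unused columns of per-sample values numbered 0. The 6074 deposited barcodes matched 1 library, so barcodes shared between libraries were not analysed here.

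Cells with at least 200 genes, at most 10% mitochondrial UMIs and a Scrublet score of at most 0.25 were kept. The score limit was fixed because Scrublet's own call marked 95, 125, 7 and 6 cells. Clustering used scanpy 1.11.5 on Python 3.11.15 (2000 variable genes without the 9 members, 30 components, 15 neighbours, Leiden resolution 1). Clusters were named from marker lists by a score rule set after the data were seen (best list at least 1 on log2(CPM + 10), 0.5 above the next, at least 3 markers detected). CPM is the summed count of a class per 1000000 of its UMIs, and no test between groups was run, since each group was 1 library. Ratios carry exact conditional intervals, and genes with at least 20 UMIs in both libraries together counted as measured. Intervals and limits from 0 counts (3 counts) cover counting error only. The functions were checked on simulated counts. TMM factors came from edgeR 4.0.16. Named genes are the 9 members, the members of 10 related lists with the highest mean CPM in the class described, and the 3 genes most like each member, of which 1 is not reported here. The members and lists were chosen with earlier results of these data known. Alternatives covered filters, doublets, clustering, normalization, thinning, fold and UMI minima, and are given at the end.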

Additional observations from a re-analysis of the deposited data

Results flagged for a closer look

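For 3 genes the ratio of anti-PD-1 to IgG, or of KO to WT, differed between the 2 settings where it could be read, with values on either side of 1 and counting intervals that did not overlap. With 1 library per group the difference itself was not tested. Csf2ra in lipid macrophages had an anti-PD-1 over IgG ratio of 0.765 (0.671 to 0.871) in KO and 1.16 (1.03 to 1.30) in WT, and a KO over WT ratio of 0.778 (0.683 to 0.886) under anti-PD-1 and 1.18 (1.05 to 1.32) under IgG, so all 4 intervals left out 1. For the other 2 genes the interval took in 1 in 1 of the settings, which then shows no direction. Csf1 in Siglecf-marked neutrophils had an anti-PD-1 over IgG ratio of 0.689 (0.578 to 0.818) in KO and 1.02 (0.902 to 1.16) in WT, and a KO over WT ratio of 0.690 (0.579 to 0.821) under anti-PD-1 and 1.03 (0.906 to 1.16) under IgG. Csf2 in tumour cells had an anti-PD-1 over IgG ratio of 0.942 (0.518 to 1.68) in KO and 4.38 (1.76 to 13.1) in WT, and a KO over WT ratio of 0.782 (0.416 to 1.45) under anti-PD-1 and 3.64 (1.51 to 10.6) under IgG. Without the tumour cluster of mostly KO cells, the KO over WT ratio of Csf2 was 0.392 under anti-PD-1 and 1.68 under IgG. For each gene both comparisons use the same 4 libraries and are not independent.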

How the results depend on the processing

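All alternatives ran on the same 4 libraries. Of the values compared with those reported, 310 counted as the same, 52 as moved and 3 as reversed. The same meant within the SD over the libraries, inside the reported counting interval, or within 1.5-fold for numbers of pairs. Where these were wide, large changes also counted as the same, such as 1.68 against 3.64 (1.51 to 10.6) for Csf2 in tumour cells. The cause of a move was not tested unless the setting itself removes cells, genes or UMIs. In the alternatives, pairs past the fold were counted for the members only. The share over all genes was not counted there, so those numbers are not read as results about the members. A mitochondrial limit of 5% put 18.1% of Csf2 UMIs in innate lymphoid cells and gave 2 pairs past 2-fold for KO anti-PD-1 against WT anti-PD-1. With at least 500 genes per cell, which removes many neutrophils, Csf3r in Retnlg-marked neutrophils read 1276 CPM, Csf2rb in Siglecf-marked over Retnlg-marked neutrophils 0.77 (log2), the neutrophil shares 64.0% (Csf1) and 77.6% (Csf3r), the innate lymphoid share of Csf2 35.2%, and the monocyte and macrophage shares 82.0% (Csf1r), 65.6% (Csf2ra) and 46.5% (Csf2rb), with 3 pairs past 2-fold for KO anti-PD-1 against either KO IgG or WT anti-PD-1. Leiden resolution 2 gave 28.3% for the innate lymphoid share of Csf2 and 2 pairs for KO anti-PD-1 against WT anti-PD-1. Members among the variable genes gave 0.56 (log2) for Csf1r in Arg1-marked over lipid macrophages, and 2 and 3 pairs for KO anti-PD-1 against KO IgG and WT anti-PD-1. The mean over cells of CPM gave 4.12 for Csf2 in tumour cells and 1737 for Csf3r in Retnlg-marked neutrophils, with 5 pairs in each of those comparisons. Without the cell with the most UMIs, KO anti-PD-1 against WT anti-PD-1 had 2 pairs.

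Thinning each cell to 1000 UMIs gave 4.95 CPM for Csf2 in tumour cells, 317 for Csf2rb in Siglecf-marked and 1452 for Csf3r in Retnlg-marked neutrophils, 2.18 (log2) for Csf1 in Siglecf-marked over Retnlg-marked cells and 1.10 for Csf3r the other way, and 1 and 2 pairs for WT anti-PD-1 against WT IgG and KO anti-PD-1 against KO IgG. The Csf2 ratios in tumour cells came to 0 (KO IgG over WT IgG) and 0.980 (WT anti-PD-1 over WT IgG), but from 1, 1, 0 and 0 cells with a UMI, too few to show a direction. Shares of cells became 0.375% (Csf2, tumour), 0.563% (Il34, tumour), 41.7% (Csf1r, non-classical monocytes), 25.1% (Csf2ra, lipid macrophages) and 14.6% (Csf2rb2, plasmacytoid dendritic cells). Asking for 2 UMIs gave 7.70% (Csf1, Siglecf-marked), 1.56% (Il34, tumour), 31.3% (Csf1r), 62.6% (Csf2ra), 6.95% (Csf2rb, Siglecf-marked), 19.5% (Csf2rb2) and 48.9% (Csf3r, Retnlg-marked). In the order KO IgG and WT anti-PD-1 against WT IgG, KO anti-PD-1 against KO IgG and against WT anti-PD-1, pairs past the fold were 6, 12, 3 and 10 with a minimum of 10 UMIs, and 9, 9, 3 and 10 at 1.5-fold. A minimum of 50 UMIs left 0 in each of the 4 comparisons. No share over all genes stands beside these numbers, so a rise under a looser setting is not a result about the members.

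Chosen after the data were seen, leaving out tumour cells with Ptprc reversed Csf2 for WT anti-PD-1 over WT IgG to 0, while KO IgG over WT IgG was 4.67, and leaving out the tumour cluster of mostly KO cells gave 1.68 and 4.72 for KO IgG and WT anti-PD-1 over WT IgG. Leaving out each library in turn, also chosen then, gave means of 315 to 352 CPM (Csf1, Siglecf-marked), 498 to 555 (Csf1r, non-classical monocytes), 298 to 722 (Csf2, innate lymphoid), 8.52 to 12.1 (Csf2, tumour), 23.0 to 66.9 (Csf3, fibroblast) and 4.94 to 7.2 (Il34, tumour). No paired analysis was possible because each group is 1 library. Depth limits Csf3, Il34 and the rare classes.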
